A study of Mus musculus with 4 samples.

Results

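The genes described here were the 9 members of the retinoic acid pathway that were selected by symbol from the 32285 genes of the count tables. They were the synthesis enzymes *Aldh1a1*, *Aldh1a2* and *Aldh1a3*, the binding proteins *Crabp1* and *Crabp2*, the receptors *Rara*, *Rarb* and *Rarg*, and the clearing enzyme *Cyp26b1*. Their unique molecular identifiers (UMIs, which count captured transcripts) were summed per library and cell class. The study followed injury-induced heterotopic ossification, the formation of bone in soft tissue, by single-cell RNA sequencing of tibial muscle from mice of the genotype *Nse-Bmp4* (strain C57BL/6, 6-8 weeks old). In these mice the promoter of rat neuron-specific enolase drives *Bmp4*, and this transgene was shared by all groups, so no wild-type library entered any comparison. There were 4 groups of 1 library each, namely muscle without injury (Uninjured) and muscle taken 1, 3 or 7 days after injury (1, 3 and 7 dpi) with cardiotoxin, a snake toxin that kills muscle fibres. Each library was a pool of 3 muscles, so no test between time points could be made and time point and library cannot be told apart.

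Retinoic acid is a signal made inside cells from vitamin A. Retinol is first turned into retinaldehyde by alcohol and retinol dehydrogenases, and the ALDH1A enzymes then oxidise retinaldehyde to retinoic acid, which is carried by CRABP proteins, bound by the nuclear receptors RARA, RARB and RARG together with RXR partners, and destroyed by CYP26 enzymes. In the developing limb, retinoic acid signalling is known to hold back cartilage formation, CYP26B1 keeps its level low there, and agonists of RARG are known to reduce heterotopic ossification in mice. *Rarb* is itself a known target of retinoic acid, through a response element in its promoter.

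The promoter of *Rarb* is shown because it was the only member promoter in which that element was found. Promoter windows of 300 bases (250 before and 50 after a gene's start) from RefSeq, build GRCm38.p6, were found for 7 of the 9 members, in 12 windows. They were searched on both strands for the DR5 element, a repeat of the 6-base receptor site with a gap of 5 bases. The site was written as RGKTCA, where R is A or G and K is G or T, and other spellings were not searched. Of all 32851 windows 32 held it (0.0974%), and among the 12 member windows it was found in the window of *Rarb*. The 250 bases before the start of *Rarb* (chr14:16575477-16575726, minus strand, 5′ to 3′) are given with the 17 bases of the element in capitals, which ran from 53 to 37 bases before the start.

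Rarb promoter: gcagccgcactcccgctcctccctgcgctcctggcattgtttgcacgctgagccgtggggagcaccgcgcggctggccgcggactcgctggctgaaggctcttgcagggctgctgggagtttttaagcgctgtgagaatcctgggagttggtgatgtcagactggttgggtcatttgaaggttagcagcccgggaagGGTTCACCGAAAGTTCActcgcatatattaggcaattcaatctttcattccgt

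The windows of *Aldh1a1*, *Aldh1a2*, *Rara*, *Rarg*, *Crabp1* and *Cyp26b1* did not hold a match to this pattern, and *Aldh1a3* and *Crabp2* had no window. A match of letters describes the sequence and is not a measurement of binding.

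The libraries held 12031, 11722, 15160 and 23752 cells in the order of time, with totals of 91146335 to 129007669 UMIs, and the median UMIs per cell were 8629 in Uninjured and 5562, 4214 and 3083 after injury. After filtering, 10307, 9641, 12604 and 20301 cells were kept, and 4.98% to 20.4% of them were assigned to no class. Pairs of libraries shared 30 to 95 cell barcodes. Fibroblast-like and stem-like cells of the mesenchyme (mesenchymal cells) numbered 8409, 3811, 6178 and 10621, and 5020 chondrocyte-like cells, gated by at least 5 of 8 cartilage markers, were found at 7 dpi, while no kept cell of the earlier libraries met that gate. Muscle cells in the libraries were satellite cells and myoblasts (222 or fewer per library), while *Acta1*, the actin of muscle fibres, had 2.85 to 38 of every 1000000 UMIs (CPM) over all kept cells. *Bmp4* had 108, 54.9, 43.2 and 17.1 CPM in the order of time, and transcripts of the transgene and of the endogenous gene cannot be told apart in these counts. A UMI of *Ptprc*, the pan-leukocyte gene, was seen in 0.642%, 6.8%, 4.58% and 8.36% of mesenchymal and chondrocyte-like cells in the order of time. The part of free RNA or doublets in the levels below was not tested, and natural killer (NK) and T cells are given as the level in cells with little reason to express the enzymes. Levels are CPM, the UMIs of a gene per 1000000 UMIs of the same cells, and the ranges in parentheses are 95% intervals that cover counting error only.

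In mesenchymal and chondrocyte-like cells together, all 9 members had at least 50 UMIs in the higher library of each comparison between successive time points. At 1 dpi against Uninjured, 3 of the 9 members were past 2-fold, against 11.4% of 13298 genes (7.10% higher and 4.32% lower). *Aldh1a2* and *Cyp26b1* were higher and *Crabp1* was lower. At 3 dpi against 1 dpi, 3 members were past 2-fold, with *Crabp1* and *Crabp2* higher and *Aldh1a1* lower, against 11.0% of 12989 genes (6.04% higher and 4.96% lower). The log2 ratio of *Aldh1a1* there was -0.85 after each cell was thinned to 1000 UMIs and -0.65 when each cell had equal weight, and that of *Crabp1* was 0.76 with equal weight, so that these calls were lost. At 7 dpi against 3 dpi, 5 members were past 2-fold, with *Crabp1* and *Crabp2* higher and *Aldh1a1*, *Aldh1a2* and *Rarb* lower, against 19.3% of 14218 genes (11.8% higher and 7.57% lower). In mesenchymal cells without the chondrocyte-like cells *Rarb* had 2.29 CPM at 7 dpi and 4.42 CPM at 3 dpi, a log2 ratio of -0.95, which left 4 members past 2-fold. With no filter on cells the log2 ratio of *Crabp2* was 0.80, also under 2-fold. The median log2 ratio of all genes was 0.16, -0.07 and -0.07 in these comparisons, and that of the members 0.03, -0.16 and 0.23. The shift of 0.16 at 1 dpi is small beside the log2 ratios of 2.10 for *Aldh1a2* and -3.29 for *Crabp1*, while the log2 ratio of 1.14 for *Cyp26b1* was 0.93 after median-of-ratios scaling, 0.92 when each cell had equal weight and 0.58 after each cell was thinned to 1000 UMIs. The synthesis enzymes *Aldh1a1* and *Aldh1a2* were thus past 2-fold lower at 7 dpi where the binding proteins were past 2-fold higher, and *Rara*, *Rarg* and *Aldh1a3* were not past 2-fold at any of these steps.

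**Figure D1:**
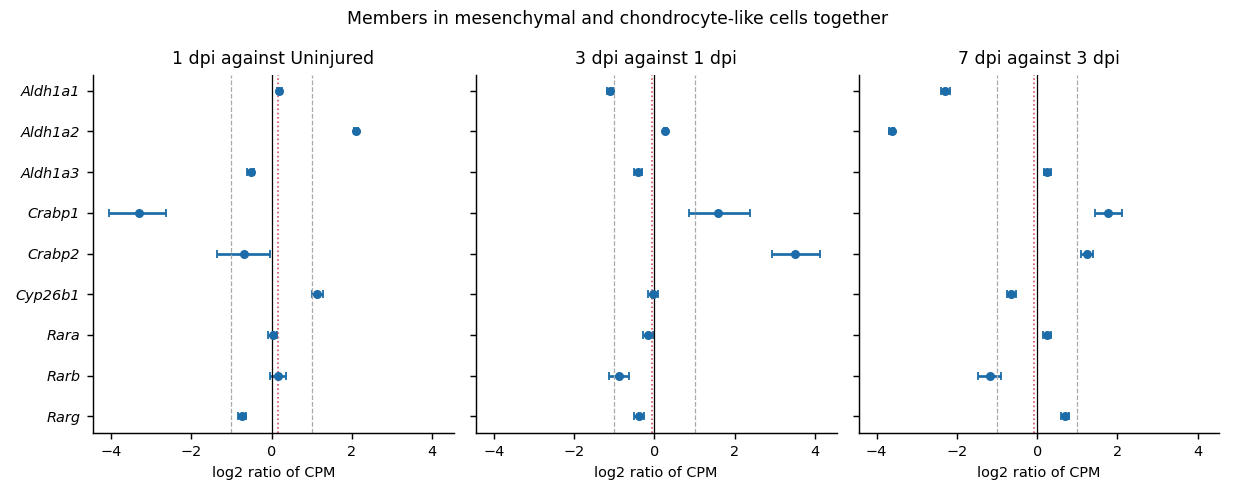
Log2 ratio of CPM of each member between successive time points in mesenchymal and chondrocyte-like cells together, with 95% counting intervals as bars, dashed lines at 2-fold and a dotted line at the median of all genes. *Aldh1a2* lies to the right at 1 dpi (2.10) and to the left at 7 dpi (-3.62; -3.16 without chondrocyte-like cells), and *Crabp2* lies to the right at 3 and 7 dpi (3.50 and 1.23).

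These sums mix kinds of mesenchymal cells whose numbers differed between libraries, so the members were also counted in subgroups gated on markers that included no member. Adventitial cells (*Pi16*, *Dpp4* and 3 further markers) numbered 2835, 704, 720 and 671, and interstitial cells (*Smoc2*, *Col15a1* and 3 further markers) 4309, 2060, 2303 and 2138. Cells with *C7* and *Gdf10* markers numbered 261, 132, 258 and 100. Cells with the injury markers *Prg4* and *Cxcl5* numbered 230, 1428 and 514 at 1, 3 and 7 dpi. Cells with *Tnn* and *Lrrc15* markers were gated at 7 dpi, where they numbered 1428. Tenocytes (*Tnmd*, *Thbs4* and 3 further markers) numbered 58 in Uninjured, 82 at 3 dpi and 1383 at 7 dpi. Whether the cells that met this gate were of the same kind in each library was not tested. Subgroups under 50 cells in a library are not described.

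*Aldh1a2* (ENSMUSG00000013584, chromosome 9, 71215789 to 71296243, GRCm38), the main retinoic acid synthase of the embryo, had 95.8% to 98% of its UMIs in mesenchymal and chondrocyte-like cells in every library. In the order of time those cells numbered 8409, 3811, 6178 and 15641 among 10307, 9641, 12604 and 20301 kept cells. In interstitial cells *Aldh1a2* had 83.7 CPM (80.9 to 86.7) in Uninjured, 306 CPM (298 to 314) at 1 dpi, 453 CPM (442 to 464) at 3 dpi and 120 CPM (113 to 127) at 7 dpi. The intervals of the 4 libraries did not overlap, and the level was 3.65-fold higher at 1 dpi than in Uninjured (3.5 to 3.82), 1.48-fold higher at 3 dpi than at 1 dpi (1.43 to 1.54) and 3.78-fold lower at 7 dpi than at 3 dpi (3.56 to 4.01). In adventitial cells *Aldh1a2* had 20.4, 69.9, 55.4 and 15.9 CPM in the order of time. The level at 1 dpi was 3.43-fold that of Uninjured (3.02 to 3.9), while that at 3 dpi was 1.26-fold lower than at 1 dpi (1.07 to 1.49), so the order of 1 and 3 dpi was the reverse of that in interstitial cells. The *C7* and *Gdf10* cells had 9.74, 75.6, 76.3 and 10.3 CPM, the largest of the 3 ratios at 1 dpi (7.77-fold, 4.92 to 12.7). In these subgroups *Aldh1a2* was thus higher at 1 and 3 dpi and near the level of Uninjured, or within 1.43-fold of it, at 7 dpi.

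Cells with the injury markers *Prg4* and *Cxcl5* held *Aldh1a2* at 215 CPM (200 to 232) at 1 dpi and 204 CPM (198 to 210) at 3 dpi, and at 20.8 CPM (16.1 to 26.6) at 7 dpi. The level was 9.78-fold lower at 7 dpi than at 3 dpi (7.66 to 12.7). *Aldh1a2* had 2.05 CPM in *Tnn* and *Lrrc15* cells, 5.96 CPM in tenocytes and 6.45 CPM in chondrocyte-like cells at 7 dpi. In the same library monocytes and macrophages had 8.37 CPM (4.01 to 15.4) and NK and T cells had 0 CPM (0 to 1.79). Over the 4 libraries NK and T cells had 0 to 7.01 CPM and B cells 0 to 6.3 CPM of *Aldh1a2*, and monocytes and macrophages had 22.5 CPM (16.6 to 29.9) in Uninjured and 3.67 to 9.34 CPM after injury. After thinning to 1000 UMIs per cell, an *Aldh1a2* UMI was seen in 7.01%, 20%, 24.2% and 7.56% of interstitial cells in the order of time (28.8%, 54.7%, 47.6% and 17.8% without thinning). The order of the thinned shares was that of the CPM.

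**Figure D2:**
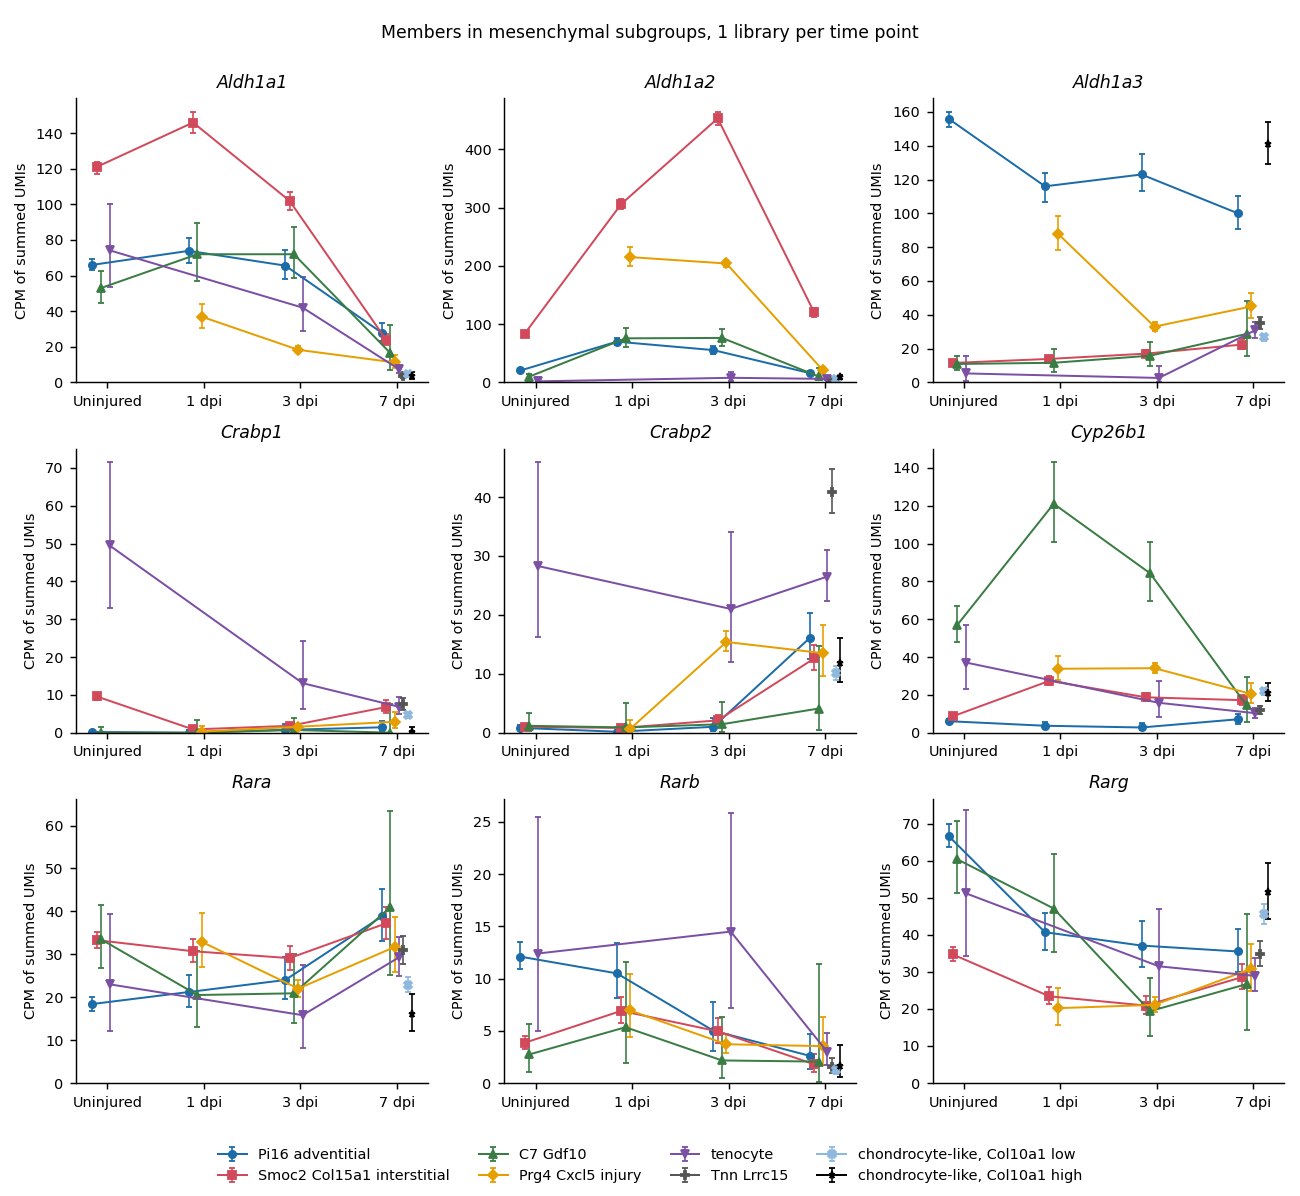
CPM of each member (vertical axes, linear from 0) in 8 mesenchymal and chondrocyte-like subgroups across the 4 libraries, with 95% Poisson intervals as bars and lines joining a subgroup across time. *Aldh1a2* peaks in interstitial cells at 3 dpi (453 CPM), *Aldh1a3* is highest in adventitial cells of Uninjured (156 CPM) and in *Col10a1* high chondrocyte-like cells (141 CPM), and *Cyp26b1* peaks in *C7* and *Gdf10* cells at 1 dpi (121 CPM).

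*Aldh1a1* (ENSMUSG00000053279, chromosome 19, 20492715 to 20643465) encodes a retinaldehyde dehydrogenase that also acts on other aldehydes. In interstitial cells it had 121 CPM (117 to 124) in Uninjured, 146 CPM (140 to 152) at 1 dpi, 102 CPM (96.6 to 107) at 3 dpi and 24 CPM (21.1 to 27.1) at 7 dpi. The level at 7 dpi was 4.24-fold lower than at 3 dpi (3.71 to 4.87) and 5.03-fold lower than in Uninjured (4.43 to 5.72). Adventitial cells had 66, 73.9, 65.6 and 27.9 CPM, a smaller difference, with 7 dpi 2.35-fold below 3 dpi (1.88 to 2.95). *C7* and *Gdf10* cells had 53, 72, 72 and 16.4 CPM. Over all mesenchymal cells *Aldh1a1* was 1.14-fold higher at 1 dpi than in Uninjured (1.09 to 1.19), a direction that turned (log2 ratio -0.02) after median-of-ratios scaling. At 7 dpi it had 3.42 CPM in *Tnn* and *Lrrc15* cells, 7.36 CPM in tenocytes and 4.73 CPM in chondrocyte-like cells, and NK and T cells had 0.485 to 2.09 CPM. Tenocytes had 74.2 CPM (53.5 to 100) in Uninjured, in 58 cells. The near copy *Aldh1a7* had 0.125 to 0.51 CPM in mesenchymal and chondrocyte-like cells.

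*Aldh1a3* (ENSMUSG00000015134, chromosome 7, 66390890 to 66427517), the third retinaldehyde dehydrogenase, had its highest level among mesenchymal cells in the adventitial subgroup. There it had 156 CPM (151 to 160) in Uninjured, 116 CPM (107 to 124) at 1 dpi, 123 CPM (113 to 135) at 3 dpi and 100 CPM (90.8 to 110) at 7 dpi. The level at 7 dpi was 1.55-fold below that of Uninjured (1.41 to 1.72), and the levels at 1 and 3 dpi had overlapping intervals. Interstitial cells had 11.5, 13.9, 17 and 22.4 CPM, and their level at 7 dpi was 1.95-fold that of Uninjured (1.66 to 2.29). Injury-marked *Prg4* and *Cxcl5* cells had 87.9 CPM (78.1 to 98.7) at 1 dpi, 33 CPM (30.6 to 35.6) at 3 dpi and 44.9 CPM (37.8 to 53) at 7 dpi. Tenocytes had 5.3 CPM from 3 UMIs in Uninjured, 2.63 CPM from 2 UMIs at 3 dpi and 30.9 CPM (26.5 to 35.8) at 7 dpi, an 11.7-fold ratio between the later pair with an interval of 3.2 to 97.7. The adventitial level was thus lowest and the interstitial one highest at 7 dpi, and the ratio between the subgroups was smaller at each later time point. It was 13.6 in Uninjured (12.3 to 15), 8.33 at 1 dpi (7.19 to 9.68), 7.26 at 3 dpi (6.21 to 8.49) and 4.47 at 7 dpi (3.81 to 5.26). The intervals at 1 and 3 dpi overlapped. The share of all genes past 2-fold between these subgroups was also smaller at each later time point (17.3%, 12.1%, 11.2% and 6.94%). NK and T cells had 0, 0.858, 2.47 and 3.4 CPM of *Aldh1a3* in the order of time. The part of depth or free RNA in the smaller ratios was not tested.

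At 7 dpi *Aldh1a3* was unevenly distributed among chondrocyte-like cells. In the 681 cells with at least 3 UMIs of *Col10a1*, the collagen of hypertrophic cartilage, it had 141 CPM (129 to 154), and in the 4339 cells with fewer it had 26.6 CPM (24.6 to 28.7), a 5.3-fold ratio (4.71 to 5.95). Of the 8 members with at least 50 UMIs in the higher unit, 2 were past 2-fold, against 5.60% of 11974 genes. *Crabp1* was the other, with 1 UMI in the *Col10a1* high cells and 116 UMIs in the low cells (0.277 and 4.57 CPM, ratio 0.0606 with an interval of 0.00152 to 0.344). When the cells were split further by their *Col10a1* UMIs, in bins that were chosen after the data had been seen, *Aldh1a3* had 25.1 CPM (23.1 to 27.3) with no *Col10a1* UMI, 37.2 CPM (30.7 to 44.6) with 1 to 2, 66 CPM (53.9 to 80.1) with 3 to 9, 150 CPM (131 to 171) with 10 to 49 and 340 CPM (292 to 394) with 50 or more. No neighbouring intervals overlapped, and the level was higher in each bin than in the bin before. *Ihh*, the hedgehog ligand of prehypertrophic cartilage, had 23.5, 53, 126, 247 and 441 CPM in the same bins. *Mmp13*, a matrix protease gene also counted in these bins, had 59.5, 68.9, 84, 58.1 and 96.7 CPM and did not rise in each bin. *Pi16*, the adventitial marker, had 51.1, 40.1, 57, 43.7 and 19.3 CPM, and *Dpp4*, another marker of the adventitial cells, had 7.95, 6.47, 14.7, 12.4 and 0 CPM. The last bin held 46 cells with a median of 9992 UMIs, against medians of 3598 to 4244 in the other bins. Without it the *Col10a1* high cells had 108 CPM of *Aldh1a3* in 635 cells. *Rarg* had 43.7, 57.9, 41, 56.8 and 67.7 CPM and *Cyp26b1* 20.6, 30.4, 18.6, 25.4 and 15.5 CPM in the bins, with no such order, while *Aldh1a2* had 5.97, 6.47, 7.05, 11.1 and 11.6 CPM with overlapping intervals between neighbouring bins.

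**Figure D3:**
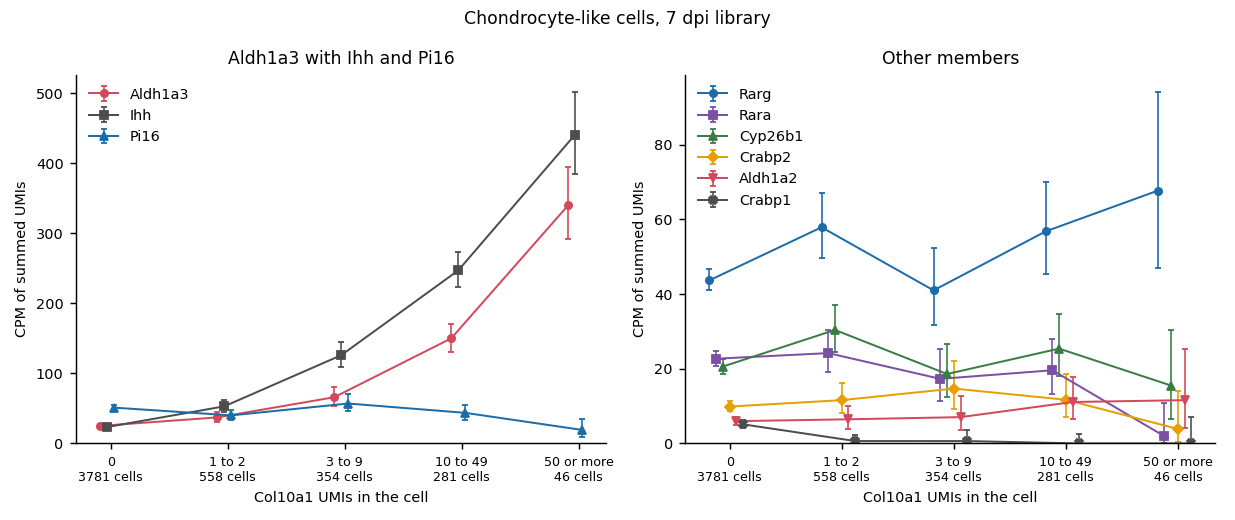
CPM of *Aldh1a3*, *Ihh* and *Pi16* (left) and of other members (right) in chondrocyte-like cells of the 7 dpi library, by the number of *Col10a1* UMIs in the cell, with 95% Poisson intervals as bars. *Aldh1a3* goes from 25.1 CPM in cells without a *Col10a1* UMI to 340 CPM in cells with 50 or more, alongside *Ihh*. Among the other members *Aldh1a2* goes from 5.97 to 11.6 CPM, and *Crabp1* has 5.12 CPM in cells without *Col10a1* and 0.647 CPM or less elsewhere.

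*Aldh1a2* and *Aldh1a3* were detected together in part of the cells. In interstitial cells of Uninjured, an *Aldh1a2* UMI was seen in 191 of 378 cells with an *Aldh1a3* UMI (50.5%) and in 1049 of 3931 cells without one (26.7%), with median depths of 9234 and 8713 UMIs. At 1 dpi the shares were 73.7% and 52.9%, at 3 dpi 69.7% and 46.2%, and at 7 dpi 18.8% and 17.7%. In the first 3 libraries *Aldh1a2* was thus seen more often in the interstitial cells that also held *Aldh1a3*, and in each library those cells were deeper, with medians of 8960 and 7426 UMIs at 1 dpi, 7368 and 4366 at 3 dpi, and 5917 and 3308 at 7 dpi. In adventitial cells the shares with and without *Aldh1a3* were 8.15% and 10.4% in Uninjured, 25.8% and 24.2% at 1 dpi, 15.5% and 16.6% at 3 dpi, and 4.65% and 6.8% at 7 dpi. The part of depth in these shares was not tested.

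*Crabp1* (ENSMUSG00000032291, chromosome 9, 54764748 to 54773110) and *Crabp2* (ENSMUSG00000004885, chromosome 3, 87948666 to 87953376) encode carriers of retinoic acid in the cytoplasm. CRABP2 is known to hand its ligand to the nuclear receptors, and CRABP1 has been linked to its breakdown. *Crabp1* had 415, 19, 90 and 464 UMIs in mesenchymal and chondrocyte-like cells of the 4 libraries, or 5.25 CPM (4.76 to 5.78), 0.536 CPM (0.323 to 0.837), 1.61 CPM (1.29 to 1.98) and 5.5 CPM (5.01 to 6.03). The level was 9.8-fold lower at 1 dpi than in Uninjured (6.19 to 16.4) and 3.42-fold higher at 7 dpi than at 3 dpi (2.72 to 4.33), and Uninjured and 7 dpi had overlapping intervals. The cells behind these values differed. In Uninjured, 372 of the 415 UMIs lay in interstitial cells (9.6 CPM) and 28 lay in 58 tenocytes (49.5 CPM, 32.9 to 71.5), while adventitial cells had 5 UMIs (0.185 CPM). At 7 dpi, interstitial cells had 6.77 CPM, *Tnn* and *Lrrc15* cells 7.53 CPM, tenocytes 6.84 CPM and *Col10a1* low chondrocyte-like cells 4.57 CPM.

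*Crabp2* had 93, 26, 463 and 1643 UMIs in mesenchymal and chondrocyte-like cells, or 1.18 CPM (0.949 to 1.44), 0.733 CPM (0.479 to 1.07), 8.28 CPM (7.55 to 9.07) and 19.5 CPM (18.6 to 20.4). The level at 3 dpi was 11.3-fold that of 1 dpi (7.61 to 17.5) and at 7 dpi it was 2.35-fold that of 3 dpi (2.12 to 2.61). The level at 1 dpi was 1.6-fold below Uninjured (1.03 to 2.58), a log2 ratio of -0.68 that became -3.71 with no filter on cells. At 3 dpi 312 of the UMIs lay in *Prg4* and *Cxcl5* cells, where *Crabp2* had 15.4 CPM (13.8 to 17.2) against 0.604 CPM from 2 UMIs at 1 dpi, while interstitial cells had 2.09 CPM and adventitial cells 1 CPM. Mesenchymal cells of no subgroup held 98 UMIs at 3 dpi (6.58 CPM), against 1.12 CPM at 1 dpi (5.86-fold, 2.86 to 14). At 7 dpi the level was highest in *Tnn* and *Lrrc15* cells, with 40.9 CPM (37.3 to 44.8), and interstitial cells had 12.6 CPM (10.6 to 14.9), adventitial cells 16.1 CPM (12.5 to 20.4) and chondrocyte-like cells 10.3 CPM (9.18 to 11.6). Tenocytes held *Crabp2* in every library in which they were described, with 28.3 CPM (16.2 to 45.9), 21 CPM (12 to 34.1) and 26.5 CPM (22.4 to 31), and these intervals overlapped. Outside the mesenchyme, Schwann cells, the glia of peripheral nerves, had 16.4, 3.68, 5.1 and 17.1 CPM from 15, 3, 2 and 8 UMIs. NK and T cells had 0 to 0.619 CPM. Among the kept cells *Crabp2* was thus near 1 CPM in the mesenchyme outside tenocytes before injury. There it was higher at 3 dpi in injury-marked cells and, to a lesser level, in mesenchymal cells of no subgroup. At 7 dpi it was found across the mesenchymal subgroups, though in *C7* and *Gdf10* cells from 2 UMIs only (4.1 CPM). With no filter on cells its log2 ratios at the successive steps were -3.71, 4.15 and 0.80. The low level before injury is therefore described for the kept cells only.

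*Rara* (ENSMUSG00000037992, chromosome 11, 98927818 to 98974942) encodes the most widely expressed retinoic acid receptor. In mesenchymal and chondrocyte-like cells it had 27.4 CPM (26.3 to 28.6), 28.1 CPM (26.3 to 29.9), 25.1 CPM (23.8 to 26.4) and 29.5 CPM (28.4 to 30.7), all within 1.18-fold of the library before. It was higher in monocytes and macrophages, with 73.2 CPM (62.2 to 85.7), 90.3 CPM (85.1 to 95.7), 83.3 CPM (74.6 to 92.8) and 79.5 CPM (64.3 to 97.2), of which 1 dpi was 1.23-fold above Uninjured (1.04 to 1.47) and the other neighbouring libraries had overlapping intervals. Neutrophils had 72, 62 and 134 CPM at 1, 3 and 7 dpi, the last from 19 UMIs in 91 cells (81 to 210). Dendritic cells had 80.4 CPM (64.5 to 98.9) at 3 dpi, while granulocyte progenitors had 3.9 and 5.12 CPM at 1 and 3 dpi. Immune cells held 53.3% of all *Rara* UMIs at 1 dpi and 9.68% in Uninjured, against 2.24% and 0.136% for *Aldh1a1*. The mix of cells differed too, with 3811 mesenchymal cells among 9641 kept cells at 1 dpi and 8409 among 10307 in Uninjured. Its part in these shares was not tested. Schwann cells had 46.9 CPM (33.9 to 63.2) of *Rara* in Uninjured and 88.4 CPM (69.2 to 111), 76.5 CPM (51.6 to 109) and 109 CPM (81.3 to 144) after injury, where the 1 dpi level was 1.89-fold that of Uninjured (1.28 to 2.82). In adventitial cells *Rara* had 18.4, 21.2, 24 and 38.8 CPM, and 7 dpi was 2.11-fold Uninjured (1.76 to 2.53), whereas interstitial cells had 29.1 to 37.2 CPM in the 4 libraries.

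*Rarg* (ENSMUSG00000001288, chromosome 15, 102234938 to 102257517), the receptor known for its role in cartilage and skin, had 48.7 CPM (47.2 to 50.3) in mesenchymal cells of Uninjured, 29.4 CPM (27.6 to 31.2) at 1 dpi, 22.6 CPM (21.4 to 23.9) at 3 dpi and, with chondrocyte-like cells, 36.4 CPM (35.2 to 37.8) at 7 dpi. These 4 intervals did not overlap, though no step was past 2-fold. Mesenchymal cells without the chondrocyte-like cells had 31.3 CPM at 7 dpi, close to the level at 1 dpi. In adventitial cells the levels were 66.7, 40.7, 37.1 and 35.5 CPM, with 1 dpi 1.64-fold below Uninjured (1.44 to 1.88). In interstitial cells they were 34.7, 23.4, 20.9 and 28.6 CPM. Chondrocyte-like cells had 46.2 CPM (43.8 to 48.8) at 7 dpi, 1.47-fold the level of the mesenchymal cells of the same library (1.37 to 1.58), and *Col10a1* high and low cells had 51.5 and 45.5 CPM with overlapping intervals. Monocytes and macrophages had 36.2, 16.8, 23.7 and 28.5 CPM, with 1 dpi 2.16-fold below Uninjured (1.64 to 2.81), Schwann cells 33.1 to 48 CPM, and NK and T cells 7.84 to 16.5 CPM. *Rarg* was thus lower in adventitial, interstitial and myeloid cells of the 1 dpi library than in those of Uninjured.

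*Rarb* (ENSMUSG00000017491, chromosome 14, 16430839 to 16819156), whose promoter is printed above, was sparse, with 199 to 629 UMIs per library. Its exons overlap *Top2b* and *Gm48162* on the opposite strand, and reads of these genes can be told apart only where the counting uses strand. In adventitial cells it had 12.1 CPM (10.9 to 13.5), 10.5 CPM (8.15 to 13.4), 5.01 CPM (3.06 to 7.74) and 2.6 CPM (1.3 to 4.66) in the order of time. The level at 7 dpi was 4.66-fold below that of Uninjured (2.57 to 9.43). Interstitial cells had 3.85 CPM (3.25 to 4.51), 6.91 CPM (5.73 to 8.26), 4.95 CPM (3.87 to 6.25) and 1.79 CPM (1.08 to 2.79), so here the 1 dpi level was 1.8-fold above Uninjured (1.4 to 2.3). Schwann cells had 10.2 to 17.4 CPM with overlapping intervals in the 4 libraries, and mural cells, the pericytes and smooth muscle of vessels, had 14.6 CPM (8 to 24.5) in Uninjured and 2.69 CPM (0.875 to 6.29) at 7 dpi. Monocytes and macrophages had at most 3 UMIs in any library. Among mesenchymal and chondrocyte-like cells *Rarb* was lowest at 7 dpi, at 1.94 CPM (1.66 to 2.27) against 7.3 CPM (6.71 to 7.92) in Uninjured. In these summed cells *Aldh1a1* and *Aldh1a2* were also at their lowest at 7 dpi. *Rarb* was already 1.84-fold lower at 3 dpi than at 1 dpi (1.55 to 2.19), where *Aldh1a2* had a log2 ratio of 0.28 (-0.02 with no filter on cells). *Aldh1a3* had 39.1 CPM at 7 dpi and 33 CPM at 3 dpi. A link between these genes was not tested.

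*Cyp26b1* (ENSMUSG00000063415, chromosome 6, 84571414 to 84593908), which degrades retinoic acid, was highest in Uninjured and at 1 and 3 dpi, among mesenchymal cells, in those with *C7* and *Gdf10* markers. They had 56.9 CPM (48 to 66.9) in Uninjured, 121 CPM (101 to 143) at 1 dpi, 84.2 CPM (69.6 to 101) at 3 dpi and 14.4 CPM (5.77 to 29.6) at 7 dpi. The level was 2.13-fold higher at 1 dpi than in Uninjured (1.67 to 2.71) and 5.86-fold lower at 7 dpi than at 3 dpi (2.76 to 14.9), the last from 7 UMIs in 100 cells. Interstitial cells had 8.67 CPM (7.77 to 9.65), 27.4 CPM (25 to 30), 18.7 CPM (16.5 to 21.1) and 17.2 CPM (14.8 to 19.9), and 1 dpi was 3.16-fold above Uninjured (2.74 to 3.64). Adventitial cells, where *Aldh1a3* was highest, had 6.08, 3.67, 2.76 and 7.1 CPM of *Cyp26b1*, and 1 dpi was 1.66-fold below Uninjured (1.07 to 2.69). Injury-marked *Prg4* and *Cxcl5* cells had 33.8, 34.1 and 20.5 CPM at 1, 3 and 7 dpi (12.3 CPM at 7 dpi with limits set on linear counts), and chondrocyte-like cells had 21.7 CPM (20 to 23.4), 1.56-fold the level of mesenchymal cells at 7 dpi (1.4 to 1.74). The subgroups thus differed in direction at 1 dpi, with higher levels in interstitial and in *C7* and *Gdf10* cells and a lower level in adventitial cells.

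*Cyp26b1* was also counted in vessel cells. Endothelial cells had 81.6 CPM (53.8 to 119) at 1 dpi, 14.6 CPM (5.37 to 31.9) at 3 dpi and 37 CPM (18.5 to 66.2) at 7 dpi, from 27, 6 and 11 UMIs in 66, 124 and 73 cells. Mural cells had 1 UMI in 114 cells of Uninjured (1.05 CPM, 0.0265 to 5.82) and 84 UMIs in 238 cells at 7 dpi (45.3 CPM, 36.1 to 56), a ratio of 43.3 with an interval of 7.56 to 1731. *Col1a1*, a fibroblast collagen gene, had 101 CPM in the mural cells of Uninjured and 2645 CPM in those of 7 dpi, and its part in the *Cyp26b1* ratio was not tested. NK and T cells had 0 to 0.429 CPM, monocytes and macrophages 0 to 0.758 CPM and muscle cells 0 to 0.307 CPM. Each of the endothelial levels, and the mural level at 7 dpi, was thus above those of NK and T cells and of monocytes and macrophages in every library, in classes of 66 to 238 cells.

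**Figure D4:**
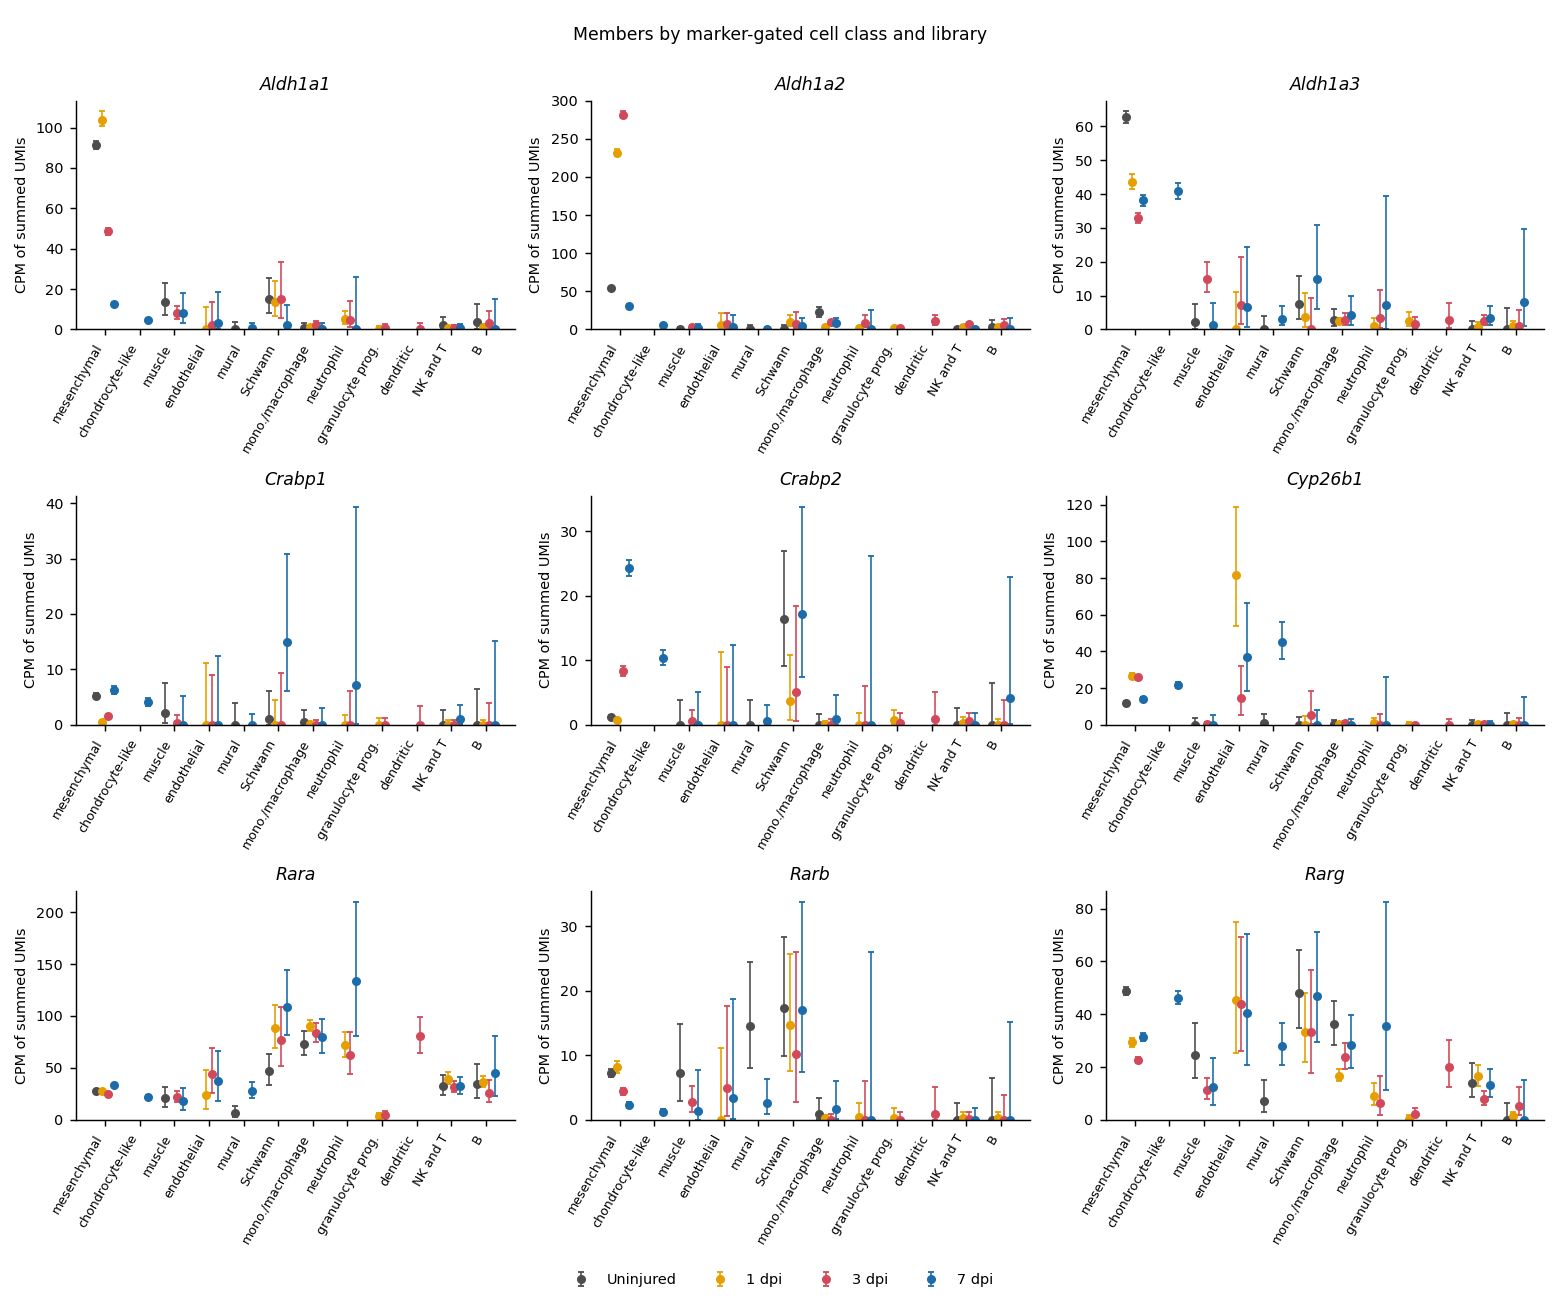
CPM of each member (vertical axes, linear from 0) in the marker-gated cell classes of the 4 libraries (colours), with 95% Poisson intervals as bars, for classes of at least 50 cells. *Aldh1a1*, *Aldh1a2* and *Aldh1a3* reach at most 22.5 CPM outside mesenchymal and chondrocyte-like cells, *Rara* is higher in monocytes and macrophages (73.2 to 90.3 CPM) than in mesenchymal cells, and *Cyp26b1* appears in endothelial and mural cells.

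The subgroups of one library share their handling, so the members were also compared between subgroups within each library. In adventitial against interstitial cells of Uninjured, 4 of the 8 members with enough UMIs were past 2-fold, against 17.3% of 12265 genes. *Aldh1a3* and *Rarb* were higher in adventitial cells (13.6-fold and 3.15-fold) and *Aldh1a2* and *Crabp1* were lower, with ratios of 0.243 (0.222 to 0.266) and 0.0193 (0.00624 to 0.0455). At 1 dpi 3 of 7 members were past 2-fold, against 12.1% of all genes, at 3 dpi 3 of 7, against 11.2%, and at 7 dpi 4 of 8, against 6.94%. *Aldh1a3* was higher and *Aldh1a2* lower in adventitial cells in each of the 4 libraries. The ratio of *Aldh1a2* was 0.229 at 1 dpi, 0.122 at 3 dpi and 0.132 at 7 dpi. *Cyp26b1* was past 2-fold lower in adventitial cells at 1, 3 and 7 dpi, with ratios of 0.134, 0.147 and 0.412.

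In *C7* and *Gdf10* against interstitial cells, 4 of 8 members were past 2-fold in Uninjured, against 14.7% of all genes, 4 of 7 at 1 dpi, against 11.9%, 3 of 7 at 3 dpi, against 9.18%, and 3 of 8 at 7 dpi, against 10.9% (8.68% in the direction of these 3, which were lower). These counts rest on the ratio alone, and at 7 dpi the interval lay below 1 for *Aldh1a2* but held 1 for *Crabp1* and *Crabp2*. *Cyp26b1* was higher in *C7* and *Gdf10* cells by 6.56-fold (5.36 to 7.99), 4.42-fold (3.62 to 5.35) and 4.5-fold (3.59 to 5.62) in the first 3 libraries, and its ratio at 7 dpi was 0.834 (0.331 to 1.75). *Aldh1a2* was lower there in all 4, with ratios of 0.116, 0.247, 0.168 and 0.0855. The other members past 2-fold were *Aldh1a1* (0.439 and 0.493 in Uninjured and at 1 dpi), *Rarg* (2.01 at 1 dpi), *Rarb* (0.436 at 3 dpi, 0.0878 to 1.33, from 3 UMIs), *Crabp2* (0.325 at 7 dpi, 0.039 to 1.2, from 2 UMIs) and *Crabp1*. *Crabp1* had 0 UMIs in *C7* and *Gdf10* cells of Uninjured and 7 dpi, which allows a ratio of up to 0.15 in Uninjured and up to 1.15 at 7 dpi. In *Tnn* and *Lrrc15* cells against interstitial cells at 7 dpi, 3 of 8 members were past 2-fold, against 8.70% of all genes. *Crabp2* was 3.25-fold higher (2.68 to 3.96), and *Aldh1a1* and *Aldh1a2* were lower, with ratios of 0.143 (0.0996 to 0.2) and 0.0171 (0.0109 to 0.0256). In chondrocyte-like against mesenchymal cells at 7 dpi, 3 of 9 members were past 2-fold, against 7.95% of 13404 genes, and these were *Aldh1a1*, *Aldh1a2* and *Crabp2*, all lower (4.64% of all genes were) with ratios of 0.373, 0.206 and 0.425. *Aldh1a3* had a ratio of 1.07 there (0.996 to 1.15).

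A list of 36 further genes of the pathway was counted in mesenchymal and chondrocyte-like cells. Of these, 32, 27 and 29 had enough UMIs in the successive comparisons, and 5, 4 and 9 were past 2-fold, with median log2 ratios of -0.11, -0.12 and -0.15. At 1 dpi against Uninjured 1 was higher and 4 were lower, at 3 dpi against 1 dpi 1 was higher and 3 were lower, and at 7 dpi against 3 dpi 3 were higher and 6 were lower. As shares of those with enough UMIs, the genes past 2-fold in either direction can be read against the 11.4%, 11.0% and 19.3% of all genes given above. Over all comparisons 32 of the 36 genes had enough UMIs at some step, and 13 of them were past 2-fold at some step. The matching share of all genes over the pooled steps was not computed. The further genes are given for the summed cells only, not per subgroup or without chondrocyte-like cells. At 7 dpi 5020 of the 15641 summed cells were chondrocyte-like. Interstitial cells were 2303 of 6178 summed cells at 3 dpi and 2138 of 15641 at 7 dpi. The part of this mix of cells in the ratios below was not tested.

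Among the genes that act before the ALDH1A enzymes, *Rdh10*, which makes retinaldehyde from retinol, had 15, 32.6, 51 and 16.9 CPM in the order of time. It was 2.18-fold higher at 1 dpi than in Uninjured (2.01 to 2.36) and 3.02-fold lower at 7 dpi than at 3 dpi (2.83 to 3.22). In the summed cells *Rdh10* was highest at 3 dpi, as was *Aldh1a2*. The log2 ratio of *Aldh1a2* at 3 dpi against 1 dpi was 0.28, and -0.02 with no filter on cells. In adventitial cells *Aldh1a2* was lower at 3 dpi than at 1 dpi. *Adh1*, an alcohol dehydrogenase that acts on retinol, had 68, 112, 97.7 and 8.48 CPM and was 11.5-fold lower at 7 dpi than at 3 dpi (10.7 to 12.5). *Adh7*, of the same family, was 2.65-fold lower at that step (2.29 to 3.07). *Rbp4*, the retinol carrier of blood, had 39.5, 50.1, 43.1 and 124 CPM and was 2.88-fold higher at 7 dpi (2.76 to 3.02). *Bco1*, which cleaves carotene, was 2.19-fold lower at 1 dpi (1.4 to 3.55) at a level of 1.48 CPM or less.

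*Fabp5*, a carrier known to bring retinoic acid to another nuclear receptor, had 17.7, 8.29, 91.3 and 302 CPM. It was 2.14-fold lower at 1 dpi (1.89 to 2.44), 11-fold higher at 3 dpi (9.79 to 12.4) and 3.31-fold higher at 7 dpi (3.21 to 3.41). The CPM of each step went in the same direction as *Crabp2*. The share of cells with a *Fabp5* UMI was not lower at 1 dpi, with 6.8% against 6.39% in Uninjured. The 1403 UMIs of Uninjured lay in 537 cells and the 294 UMIs of 1 dpi in 259 cells. Among the partner receptors *Rxrg* was 2.47-fold lower at 3 dpi than at 1 dpi (1.73 to 3.55), at 0.948 CPM, and *Rxra* and *Rxrb* were not past 2-fold at any step. The clearing enzyme *Cyp26a1* had 0.67 CPM in Uninjured and was 2.64-fold lower at 1 dpi (1.29 to 6.09), from 9 UMIs. Its 53 UMIs in Uninjured lay in 14 cells, and the 9 UMIs at 1 dpi in 4 cells. Of the cofactors, *Nrip1*, a corepressor of nuclear receptors, had 177 CPM at 3 dpi and 88.8 CPM at 7 dpi, a ratio at the 2-fold limit.

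Genes known to respond to retinoic acid did not move together. *Rarres2*, which encodes the chemoattractant chemerin, had 1187, 997, 492 and 135 CPM and was 2.03-fold lower at 3 dpi than at 1 dpi (1.99 to 2.06) and 3.65-fold lower at 7 dpi than at 3 dpi (3.57 to 3.73). *Rarres1* had 1.13, 0.367, 0.465 and 14.8 CPM, was 3.07-fold lower at 1 dpi than in Uninjured (1.71 to 5.99) and was 31.8-fold higher at 7 dpi than at 3 dpi (21.6 to 48.8). *Tgm2*, a transglutaminase, had 26.5, 50.2, 36.5 and 15.9 CPM and was 2.29-fold lower at 7 dpi (2.14 to 2.46). *Meis1*, a homeobox gene, was 2.02-fold lower at 3 dpi than at 1 dpi (1.81 to 2.25), and *Meis2* and *Cd38* were not past 2-fold at any step.

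**Figure D5:**
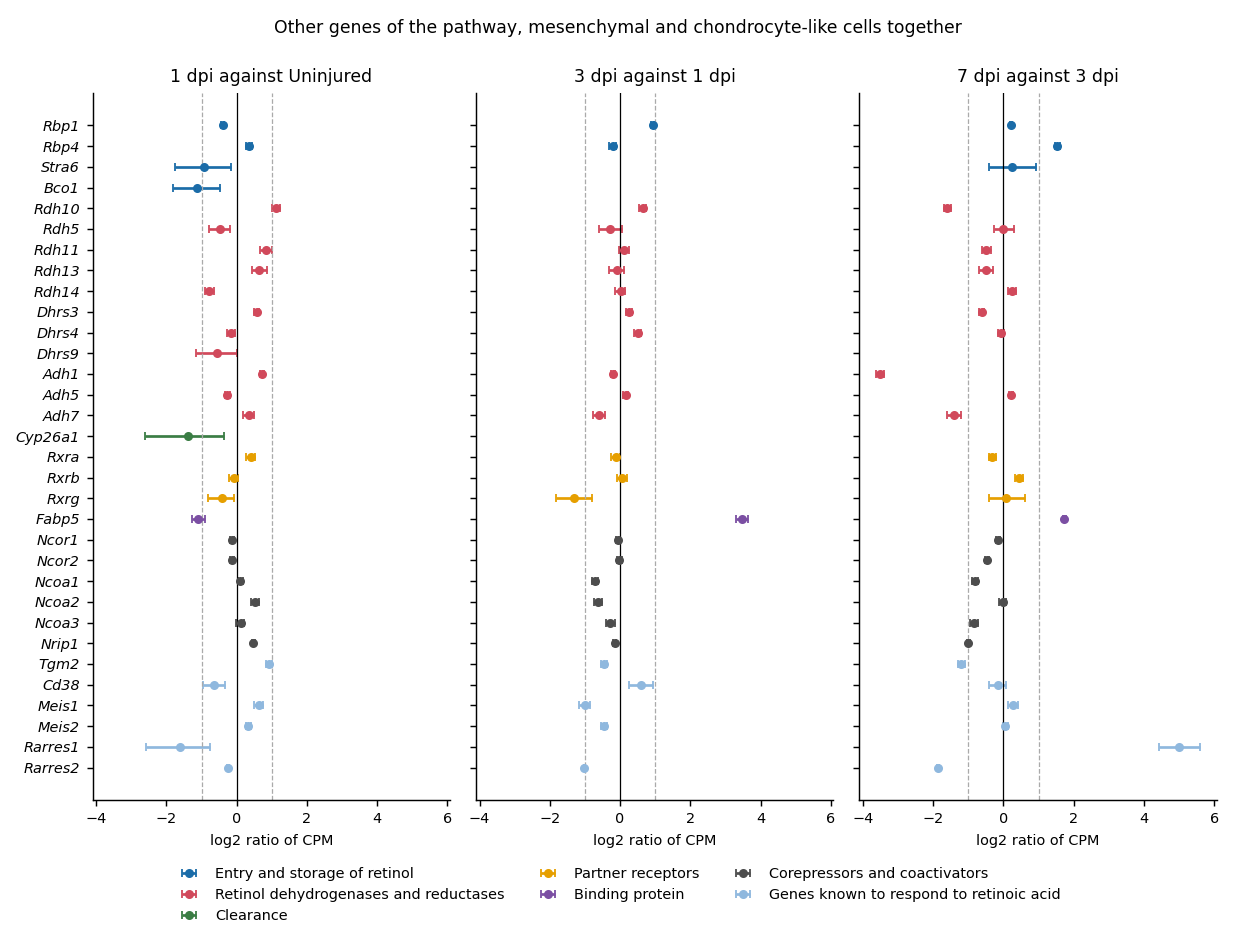
Log2 ratio of CPM between successive time points for the further pathway genes with at least 50 UMIs in the higher library, in mesenchymal and chondrocyte-like cells together, coloured by step of the pathway, with 95% counting intervals as bars and dashed lines at 2-fold. *Fabp5* lies far to the right at 3 dpi (3.46) and 7 dpi (1.73), *Adh1* far to the left at 7 dpi (-3.53) and *Rarres1* far to the right at 7 dpi (4.99).

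The genes most like each member were found by Pearson correlation of log2(CPM + 1) over 50 classes and subgroups of at least 100 cells. They were sought among 13667 genes, and members and genes needed at least 10 CPM in some of these points. These points share libraries and are not independent, so the values are descriptions. *Aldh1a1* was most like *Tnxb* (0.94), a matrix protein of the tenascin family, *Gm10115* (0.94) and *Acss3* (0.92). *Aldh1a2* was most like *Prg4* (0.87), which was itself a gate marker, *Cxcl13* (0.86) and *Ifi205* (0.86). *Aldh1a3* was most like *Ugdh*, *Duoxa1* and *Sbsn* (0.88 each), of which *Ugdh* makes a sugar precursor of cartilage matrix and hyaluronan. *Rarg* was most like *Cdk14* (0.87), its partner receptor *Rxra* (0.85) and *Rnd3* (0.84), and *Rara* was most like *Klf6* (0.80), *Zswim6* and *Acbd5* (0.71 each). *Rarb* was most like *Pja2* (0.91), *Cep112* (0.90) and *Atp6v0e2* (0.89). *Crabp2* was most like the cadherin *Cdh3* (0.88), the growth factor *Ptn* (0.87) and *Arxes1* (0.87), and *Crabp1* was most like *Gm10561* (0.73), *Slitrk6* (0.72) and *Plekhg4* (0.71). *Crabp1* reached 10 CPM among these points only in Schwann cells of 7 dpi (15 CPM, 6.03 to 30.9, from 7 UMIs). *Cyp26b1* was most like *Cygb* (0.90), *Wnt5a* (0.89), a secreted signal, and *Ccdc80* (0.89).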

How the data were processed

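Single-cell RNA sequencing counts of 4 libraries, 1 per time point, were used. Reads had been processed in Cell Ranger 5.0.0 (STAR) by the authors, whose deposited values are unscaled UMI counts, all whole numbers, for each gene in each called cell. The submitters' processing notes name mm10 and Seurat 3.1.1. The labels name a down-sampling of reads but not whether it came before these counts.

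Cells within 2 SD of their library's mean log10 UMIs and genes, with at most 10% mitochondrial UMIs, were kept, and the 7.5% with the highest Scrublet scores (scanpy 1.11.5) were removed. A cell took the class with most detected markers, of 15 classes with 8 markers each, if it had at least 3 and led the next class by 2. Mesenchymal subgroups needed at least 2 of 5 markers and more than any other subgroup. UMIs were summed per class or subgroup of at least 50 cells. CPM have exact Poisson intervals and ratios have conditional binomial (Clopper-Pearson) intervals at 95%, which cover counting error only, and no test was possible with 1 library per group. A gene entered a count with at least 50 UMIs in the higher unit, and past 2-fold means a ratio of at least 2 in either direction. Poisson counts were simulated from summed mesenchymal cells of Uninjured and 1 dpi, with 200 of 12390 genes changed. The ratio interval covered the true ratio for 96% of changed genes. The interval assumes such counts, and no variation between cells or animals was simulated, so this checks the calculation only. Scripts ran on Python 3.11.15 with pandas 2.3.3, scipy 1.17.1, numpy 2.4.6, anndata 0.12.19, matplotlib 3.10.9 and scikit-learn 1.9.0.

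The members, marker lists and pathway list were chosen with earlier results of these data known. The genes named are the 9 members, the listed pathway genes past 2-fold, and for each member the 3 genes most like it. *Ihh*, *Mmp13*, *Pi16*, *Rxra*, *Rxrb*, *Meis2*, *Cd38* and *Aldh1a7* were added after their values were seen. Also named outside that rule were the gate marker *Dpp4*, and *Col1a1*, *Ptprc*, *Acta1* and *Bmp4*. Positions are from GENCODE M21 (GRCm38), to which 99.6% of 32285 gene identifiers matched. Protein sequences were not used here.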

Additional observations from a re-analysis of the deposited data

Results flagged for a closer look

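Some members had log2 ratios of opposite sign in different cell subgroups of the same pair of libraries, with counting intervals that excluded no change in each subgroup. These differences between subgroups were not tested, since each time point was 1 library. *Aldh1a2* at 3 dpi against 1 dpi had log2 ratios of 0.57 in interstitial cells and 0.45 in mesenchymal cells of no subgroup, but of -0.34 in adventitial cells. *Aldh1a3* at 1 dpi against Uninjured had 0.27 in interstitial cells and 0.45 in mesenchymal cells of no subgroup, but -0.43 in adventitial cells. At 3 dpi against 1 dpi *Aldh1a3* had 0.30 in interstitial cells, -1.41 in *Prg4* and *Cxcl5* cells and -0.50 in mesenchymal cells of no subgroup. At 7 dpi against 3 dpi it had 0.44 in *Prg4* and *Cxcl5* cells, 0.40 in interstitial cells, 0.40 in mesenchymal cells of no subgroup and 3.55 in tenocytes, the last from 2 UMIs at 3 dpi, but -0.30 in adventitial cells.

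*Cyp26b1* at 1 dpi against Uninjured had log2 ratios of 1.09 in *C7* and *Gdf10* cells and 1.66 in interstitial cells, but of -0.73 in adventitial cells. *Rara* at the same step had 0.92 in Schwann cells and 0.30 in monocytes and macrophages, but -0.71 in *C7* and *Gdf10* cells. *Rarg* at 3 dpi against 1 dpi had 0.50 in monocytes and macrophages, but -1.28 in *C7* and *Gdf10* cells, -1.08 in NK and T cells and -0.64 in mesenchymal cells of no subgroup.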

How the results depend on the processing

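Of 30 recomputed counts of members past 2-fold, 28 stayed within 1.5 times the reported count. At 1 dpi against Uninjured 5 members were past a 1.5-fold limit in place of the 2-fold limit. At 3 dpi against 1 dpi 1 member, *Crabp2*, was past 2-fold when each cell had equal weight. The matching share of all genes was not computed for either setting, so neither count can be read against all genes. Of 243 recomputed log2 ratios of members, 175 stayed within the counting interval of the reported value, 66 moved outside it in the same direction or with an interval that held 0, and 2 turned. These were *Aldh1a1* at 1 dpi against Uninjured (-0.02 after median-of-ratios scaling) and *Aldh1a2* at 3 dpi against 1 dpi (-0.02 with no filter on cells). The cause was not tested. Large moves were the log2 ratio of *Crabp2* at 1 dpi (-3.71 with no filter on cells) and of *Cyp26b1* at 1 dpi (0.58 after thinning). Of 791 recomputed levels 727 were counted as the same and 64 as moved. Of these levels 3 moved by over 1.5 times, by at most 1.8 times, all in cells of no subgroup or *Prg4* and *Cxcl5* cells. The level of *Aldh1a3* without the cells of 50 or more *Col10a1* UMIs was chosen after seeing the data. All 6 recomputed shares of genes past 2-fold stayed within 1.5 times. No paired analysis was possible because each group has 1 library.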
